A study of Mus musculus with 8 samples.

Results

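Matrix proteases, cathepsins and their inhibitors were examined as 50 genes of 7 kinds in sorted vertebral column cells: 10 matrix metalloproteinases (Mmp), 13 Adamts proteases, 5 Adam proteases, 8 cathepsins, 4 secreted serine proteases, the urokinase receptor gene Plaur and 9 inhibitors. The genes were chosen by name and family, with earlier results of these data known. Every probe that the platform annotation assigns to 1 of them was taken. Of the 50 genes, 45 had an annotated probe, and 43 of these had at least 1 probe that could be matched without ambiguity to a row of intensities, with 80 such probes in all. A total of 61 probes of 39 genes were detected (detection p under 0.05) on at least 4 of the 8 arrays and were tested, among the probes of 10951 named genes that passed the same filter.

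The arrays measured RNA of EGFP-positive vertebral column cells, collected at E12.5 from mice of strain C57BL/6J;129, with 4 arrays labelled Bapx1 WT and 4 labelled Bapx1 HOMO, the homozygous embryos that the study calls null. Bapx1, now named Nkx3-2, is a homeobox gene active in the sclerotome and in early cartilage, and the comparison asks which genes change in the cells of its expression domain when it is lost. In the wildtype group an internal ribosome entry site and EGFP followed the intact reading frame of the Bapx1 tm2.Tlu allele, whereas in the null group EGFP was inserted behind the start codon of both Bapx1 tm4.Tlu alleles and replaced the sequence next to it. All embryos carried EGFP at the Bapx1 locus, and only cells that fluoresced were collected. The groups therefore also differed in how EGFP was made and in its number of copies, which cannot be told apart from the genotype. By the study's methods the arrays of a group are biological replicates, each from its own population of sorted cells, and the sources used here do not give how many embryos went into one.

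The matrix metalloproteinases are zinc enzymes that cleave collagens and other matrix proteins outside the cell, some of them anchored in the plasma membrane. The Adamts enzymes are secreted relatives that cut aggrecan, versican or procollagens, and the Adam enzymes are membrane proteins, several of which release the outer part of other membrane proteins. Cathepsins act mainly in lysosomes, but cathepsin K is secreted by bone-resorbing osteoclasts and degrades collagen. The tissue inhibitors of metalloproteinases (Timp) and cystatin C hold enzymes of these families in check. Serpins were counted with the inhibitors by family, although Serping1 blocks complement proteases and Serpinf1 inhibits no protease. In the developing skeleton matrix proteases remodel the matrix around cartilage condensations and later open mineralised cartilage to vessels and bone cells.

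The 8 arrays differed in ways that touch the results below. Between 41% and 45.8% of all probes were detected per array, and the mean correlation of an array with the others of its group lay between 0.979 and 0.981 for wildtype replicates 1, 3 and 4 and was 0.969 for wildtype replicate 2. Null replicates 2 to 4 reached 0.984 to 0.985, and null replicate 1 reached 0.972 with its own group and 0.976 with the wildtype group. Nkx3-2 itself (ILMN_2687592) was detected on none of the wildtype-labelled arrays and on all 4 null-labelled arrays, at least 3.67-fold higher in the latter (adjusted p = 0.0435). The position of this probe relative to the replaced sequence is not known here, so its level was not used as a check of the labels, and the groups are named by their labels throughout. Of 13 tested cartilage genes 6 were called lower in the null-labelled arrays (Col2a1, Acan, Col9a1, Sox9, Sox5 and Chad), and all 6 were detected on every wildtype-labelled array.

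Levels are given as log2 intensities after background correction and quantile normalization, differences as the null-labelled mean minus the wildtype-labelled mean of 4 arrays each, and a probe was called when its limma p-value, adjusted over all 19965 tested probes by the Benjamini-Hochberg method, fell under 0.05. Of the 61 protease and inhibitor probes 2 were called (3.28%), against 0.781% of all probes tested. One was higher in the null-labelled arrays, where 0.386% of all probes were called higher, and 1 was lower, where 0.396% of all probes were called lower. Below that threshold the probes leaned to one side: 18 of 61 had an unadjusted p under 0.05 and a higher null-labelled mean (29.5%, against 11% of all probes), and 6 of 61 a lower one (9.84%, against 10.7%). All 4 null-labelled arrays lay above all 4 wildtype-labelled arrays for 11 probes (18%, against 4.76% of all probes) and below them for 3 (4.92%, against 6.05%). Because the genes were chosen with earlier results of these data known, these shares describe the list and are no test of it. The 39 genes, each taken by its brightest tested probe, had a median difference of 0.24, with 28 positive and 11 negative values between -0.72 and 1.51, beside a median of -0.03 over the 10951 genes. Centring each array on its median moved the median of all tested probes to 0.19 and the split at an unadjusted p under 0.05 to 24 higher and 1 lower, and scaling by the median absolute deviation moved them to -0.26 and to 5 higher and 9 lower. Relative to the median of all probes the 39 genes stood at 0.27 in the fit reported here, at 0.27 after median centring and at 0.08 after scaling by the median absolute deviation.

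**Figure D1:**
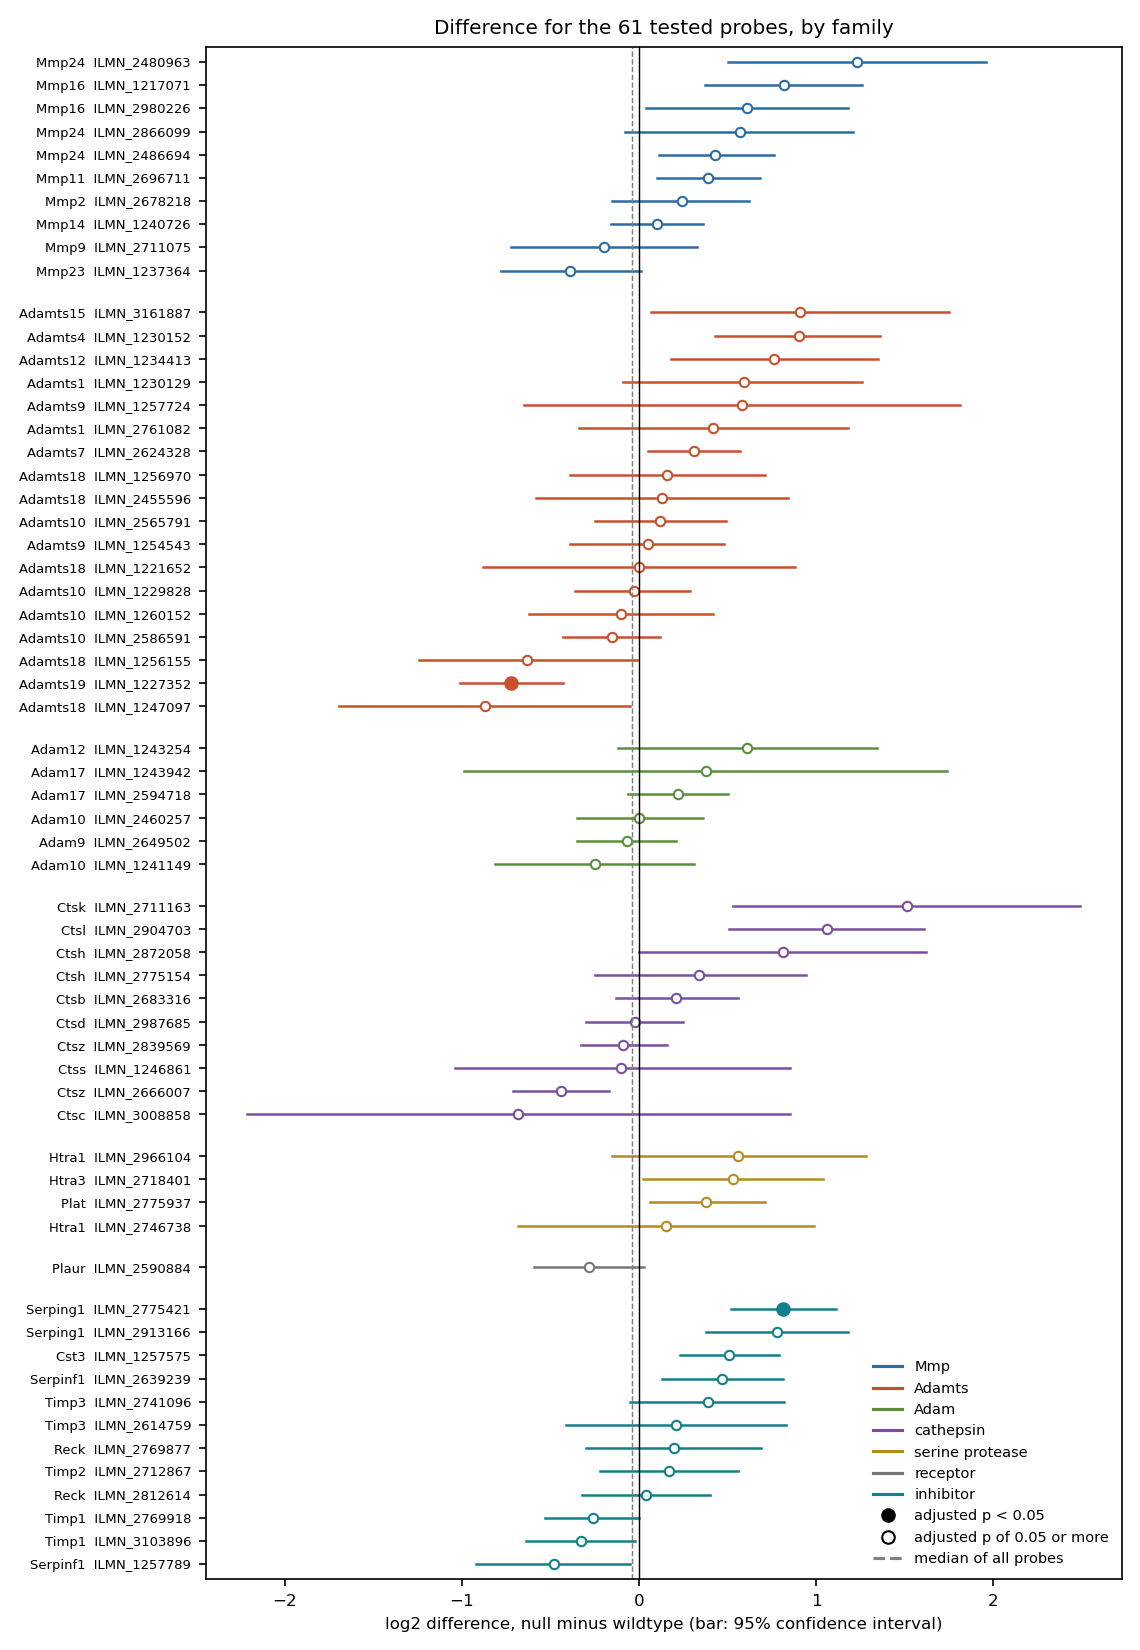
Log2 difference (null-labelled minus wildtype-labelled, 4 arrays each) of the 61 tested probes by family, with its 95% confidence interval; filled points have an adjusted p under 0.05 and the dashed line is the median of all probes. The filled points are Serping1 (0.81) and Adamts19 (-0.72), and Ctsk has the highest value (1.51) with a wide interval.

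Serping1, on mouse chromosome 2 (chr2:84765360-84775444, GRCm38.p6), encodes the C1 inhibitor, a secreted serpin that blocks the first proteases of the complement cascade. Its probe ILMN_2775421 read 8.79, 8.35, 8.74 and 8.49 on wildtype replicates 1 to 4 and 9.47, 9.45, 9.23 and 9.48 on null replicates 1 to 4. The lowest null-labelled array was thus above the highest wildtype-labelled array. The means were 8.59 ± 0.21 and 9.41 ± 0.12 (SD, n = 4), a 1.76-fold difference (log2 0.81, 95% confidence interval 0.52 to 1.11, adjusted p = 0.0292). The second and brighter Serping1 probe, ILMN_2913166, read 9.40, 8.56, 8.88 and 9.11 in the wildtype group and 9.77, 9.85, 9.56 and 9.88 in the null group. These were again without overlap (log2 0.78, 95% confidence interval 0.38 to 1.18), but the probe was not called (adjusted p = 0.078). By their brightest probes, 0 of the 39 tested genes were called higher. The call of the first probe was lost without wildtype replicate 3 (adjusted p = 0.0696), without wildtype replicate 4 (0.085) and without null replicate 2 (0.106), 3 (0.062) or 4 (0.129), while its difference stayed between 0.73 and 0.88 with 1 array left out. Scaling by the median absolute deviation lowered the 2 differences to 0.35 (adjusted p = 0.253) and 0.23 (adjusted p = 0.565).

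Adamts19, an enzyme of the Adamts family on chromosome 18, was the only gene called lower among those of the 50 that were tested. It read 9.38, 9.35, 9.49 and 9.37 on the wildtype-labelled arrays and 8.95, 8.72, 8.42 and 8.62 on the null-labelled arrays. The 4 wildtype values lay within a narrow band and every null-labelled value lay below it. The difference was -0.72 (95% confidence interval -1.01 to -0.43, 1.65-fold, adjusted p = 0.0435). The adjusted p rose above 0.05 when any array other than null replicate 1 was left out (0.06 to 0.153), with differences between -0.63 and -0.74, and without null replicate 1 it was 0.00473 at -0.81. The difference was -0.45 with median centring (adjusted p = 0.241) and -1.23 after scaling by the median absolute deviation (adjusted p = 0.192).

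**Figure D2:**
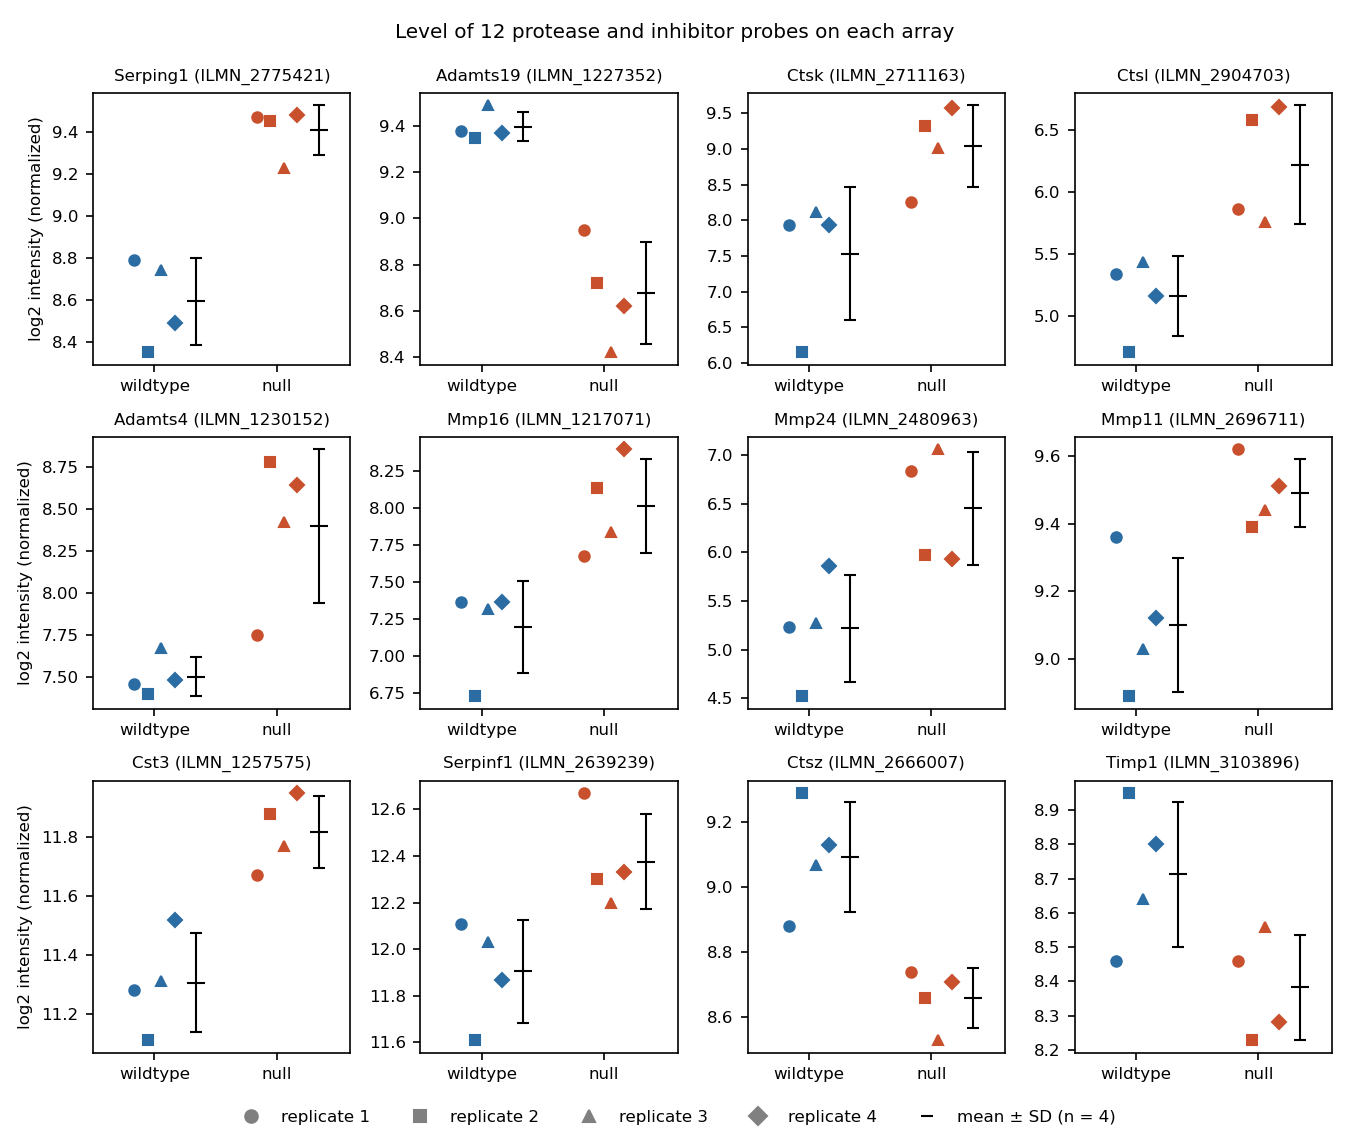
Normalized log2 intensity of 12 probes on each array, with marker shapes for the replicate number and the mean ± SD (n = 4) beside each group; each panel has its own vertical scale, which does not start at 0. The 12 probes were picked and do not stand for the 61 tested. Of the 61, all null-labelled arrays lay above all wildtype-labelled arrays for 11 (18%, against 4.76% of all probes). They lay below them for 3 (4.92%, against 6.05%). Mmp24 is drawn by ILMN_2480963, which had the largest difference (1.23) of its 3 tested probes. The groups overlap for its brightest probe, ILMN_2486694 (0.43). Among the panels shown, the groups overlap only in that of Timp1. Wildtype replicate 2 is the lowest array in every panel but those of Adamts19, Ctsz and Timp1, for example at 6.15 for Ctsk, 6.73 for Mmp16 and 8.35 for Serping1.

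The cathepsins held both the largest positive and the second lowest differences of the 39 genes, and none of the 8 was called. The promoters of 3 cathepsins with an unadjusted p under 0.05 hold the short motif reported for Bapx1, TAAGTG or TGAGTG, and are shown because they are the members of this kind in which the motif was found. Each line gives the strand that carries the motif, 5′ to 3′, with the motif in capitals, from RefSeq promoters of GRCm38.p6.
Ctsk: ggatagctgcTAAGTGtttagtttca
Ctsl: aatgctgatgTAAGTGgaagaagaca
Ctsz: atctgggcTGAGTGggccaatgga
The Ctsk window is chr3:95499079-95499104 on the minus strand, the Ctsl window chr13:64370661-64370686 on the plus strand and the Ctsz window chr2:174439266-174439289 on the minus strand. The search covered both strands of the 250 bases before and the 50 bases after the start that the promoter table uses. For Ctsk and Ctsz this is the outer end of the annotated gene, and for Ctsl it lies 252 bases inside the gene, so that the Ctsl window is within the annotated gene. One or both of these motifs, which cannot share a position, were present in 23.9% of the 32851 promoters of this length, in 3 of the 11 genes with an unadjusted p under 0.05 that had a promoter sequence and in 4 of the 17 other matched genes (Htra1, Mmp13, Mmp23 and Timp2). A match is a run of letters and not a bound site.

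Ctsk, which encodes the collagen-degrading cathepsin K, read 7.94, 6.15, 8.12 and 7.93 on wildtype replicates 1 to 4 and 8.25, 9.32, 9.02 and 9.57 on null replicates 1 to 4. All null-labelled arrays lay above all wildtype-labelled arrays, null replicate 1 by little, and wildtype replicate 2 lay far below the other 3. The means of 7.53 ± 0.93 and 9.04 ± 0.57 (SD, n = 4) differed 2.85-fold (log2 1.51, 95% confidence interval 0.53 to 2.49, unadjusted p = 0.00651, adjusted p = 0.117). Without wildtype replicate 2 the difference was 1.05 (adjusted p = 0.119), and without null replicate 1 it was 1.77 (adjusted p = 0.035). Of 8 measured osteoclast markers, 7 were detected on no array, Acp5, Calcr, Dcstamp, Ocstamp, Oscar, Tnfrsf11a and Itgb3, so that the defining genes of the cell type best known for cathepsin K were not measurable in either group. The eighth, Nfatc1, which other cell types also express, differed by 0.08 (adjusted p = 0.908).

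Ctsl, a lysosomal cysteine protease, read 5.34, 4.71, 5.44 and 5.16 in the wildtype group, where it was detected on 3 of 4 arrays, and 5.86, 6.58, 5.76 and 6.68 in the null group. The groups did not overlap, and null replicates 2 and 4 stood above the rest. The difference was 1.06 (95% confidence interval 0.51 to 1.61, 2.08-fold, adjusted p = 0.0788).

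Ctsz, a lysosomal carboxypeptidase, moved the other way by its brighter probe, with 8.88, 9.29, 9.07 and 9.13 against 8.74, 8.66, 8.53 and 8.71. The null-labelled values all lay below the wildtype-labelled ones, with a difference of -0.44 (95% confidence interval -0.71 to -0.17, adjusted p = 0.108). The second Ctsz probe, ILMN_2839569, gave -0.09 (95% confidence interval -0.33 to 0.16), with overlapping groups. Ctsb, an abundant lysosomal cysteine protease in many cells, read 12.34 to 12.95 in the wildtype group and 12.85 to 13.12 in the null group (difference 0.21, 95% confidence interval -0.13 to 0.56).

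The cathepsins of leukocytes varied by array more than by label, and these genes are described although the naming rule did not select them, as are Adamts15, the second probes and the other members named only with a range. Ctss, which trims the invariant chain in antigen-presenting cells, read 5.70, 4.56, 6.8 and 5.78 against 6.31, 5.31, 5.64 and 5.20 (difference -0.10, 95% confidence interval -1.04 to 0.85). Ctsc, which activates the serine proteases of leukocyte granules, read 6.34, 7.43, 5.59 and 5.89 against 7.59, 4.44, 6.10 and 4.39, and was detected on 4 wildtype-labelled and 2 null-labelled arrays (difference -0.68, 95% confidence interval -2.21 to 0.85). The mean of 11 tested macrophage markers, as a deviation from each gene's mean over the 8 arrays, was -0.19, -1.14, 0.73 and 0.49 in the wildtype group and 0.68, -0.54, 0.41 and -0.44 in the null group. Ctss was lowest on wildtype replicate 2 and highest on wildtype replicate 3, as the macrophage mean was, whereas Ctsc was not. The leukocyte marker Ptprc and Itgam were detected on no array. Ctsh, an aminopeptidase, differed by 0.34 and 0.81 by its 2 probes. The aspartic protease Ctsd, with a low signal of 5.67 to 6.10 over the 8 arrays, differed by -0.02 (95% confidence interval -0.30 to 0.25).

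Among the matrix metalloproteinases 7 of 10 genes were tested, 5 had a positive and 2 a negative difference, and none was called. The median was 0.24, which was 0.15 without wildtype replicate 2 and became -0.15 after scaling by the median absolute deviation and was then 0.11 above the median of all probes. Mmp16, a membrane-anchored metalloproteinase also named MT3-MMP, read 7.37, 6.73, 7.32 and 7.37 on the wildtype-labelled arrays and 7.68, 8.14, 7.84 and 8.40 on the null-labelled arrays. The groups did not overlap, and wildtype replicate 2 was again the lowest. The difference was 0.82 (95% confidence interval 0.37 to 1.26, 1.76-fold, adjusted p = 0.0838), and the second probe, ILMN_2980226, gave 0.61 (95% confidence interval 0.04 to 1.18) with overlap.

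Mmp24, the related MT5-MMP, is best known from the nervous system, and its 3 tested probes gave 0.43, 0.57 and 1.23. The probe with the largest difference, ILMN_2480963, read 5.23, 4.52, 5.27 and 5.86 against 6.84, 5.97, 7.06 and 5.93, without overlap (95% confidence interval 0.50 to 1.96, adjusted p = 0.0974). The brightest of the 3, ILMN_2486694, read 7.43, 7.49, 7.54 and 7.31 against 7.49, 7.96, 8.0 and 8.05, with null replicate 1 inside the wildtype range. Neuron markers were also higher in the null-labelled arrays, with a median difference of 1.16 over 7 tested genes of which 5 had an unadjusted p under 0.05, and list means between -1.22 and -0.10 in the wildtype group and 0.05 and 0.81 in the null group. Their part in the Mmp24 values was not tested.

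Mmp11, or stromelysin 3, is secreted by mesenchymal cells in an already active form. It read 9.36, 8.89, 9.03 and 9.12 against 9.62, 9.39, 9.44 and 9.51. The highest wildtype-labelled array and the lowest null-labelled array were close without crossing. The difference was 0.39 (95% confidence interval 0.10 to 0.68, adjusted p = 0.145). It was -0.14 after scaling by the median absolute deviation, where the median of all probes was -0.26. The collagenolytic membrane enzyme Mmp14 read 11.75 to 11.99 and 11.84 to 12.12 (difference 0.10, 95% confidence interval -0.16 to 0.36), and the gelatinase Mmp2, which Mmp14 activates, read 11.97 to 12.36 and 12.02 to 12.75 (difference 0.24, 95% confidence interval -0.15 to 0.62). Mmp23 gave -0.39 (95% confidence interval -0.78 to 0.01) and the second gelatinase, Mmp9, -0.20 (95% confidence interval -0.72 to 0.33).

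Mmp13 and Mmp3, secreted enzymes of cartilage breakdown and tissue remodelling, did not pass the detection filter. Mmp13 probe ILMN_2799267 was detected on 3 of 4 wildtype-labelled arrays and on none of the null-labelled arrays, at least 1.11-fold higher in the former, with 4.82, 4.68, 5.08 and 5.43 against 4.67, 4.69, 4.72 and 4.61. Its groups overlapped (exact two-sided permutation test over 70 splits, p = 0.0857, unadjusted). The 3 Mmp3 probes were detected on at most 1 wildtype-labelled array each and on no null-labelled array.

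Of the Adamts genes 9 of 13 were tested, with 7 positive and 2 negative differences and a median of 0.58, which was 0.31 without wildtype replicate 2, 0.30 without null replicate 1 and -0.16 after scaling by the median absolute deviation. Under that scaling the Adamts median was 0.1 above the median of all probes. Adamts4, an aggrecanase, read 7.46, 7.40, 7.67 and 7.48 against 7.75, 8.78, 8.42 and 8.64. The wildtype-labelled arrays were close together, null replicate 1 lay just above them, and the other 3 null-labelled arrays lay clearly higher. The difference was 0.90 (95% confidence interval 0.43 to 1.36, 1.86-fold, adjusted p = 0.0788), and 1.11 without null replicate 1 (adjusted p = 0.0031).

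Adamts12, which is known to degrade cartilage oligomeric matrix protein, read 10.97, 10.05, 10.81 and 10.66 against 11.01, 11.73, 10.94 and 11.85. One null-labelled array lay inside the wildtype range, and the difference was 0.76 (95% confidence interval 0.18 to 1.35, adjusted p = 0.152). It was -0.17 after scaling by the median absolute deviation, where the median of all probes was -0.26. Adamts7, its closest relative, read 8.76, 8.68, 8.48 and 8.65 against 8.98, 8.93, 8.81 and 9.10 without overlap (difference 0.31, 95% confidence interval 0.05 to 0.57, adjusted p = 0.172). Adamts15 read 7.59, 6.02, 7.53 and 7.0 against 7.12, 8.32, 7.96 and 8.37, with overlap (difference 0.91, 95% confidence interval 0.07 to 1.75, adjusted p = 0.205).

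The versican-cleaving enzymes Adamts1 and Adamts9 were uneven within groups. Adamts9 read 10.62, 9.29, 10.45 and 11.27 against 12.53, 10.19, 11.05 and 10.18, so that null replicate 1 alone stood above all other arrays (difference 0.58, 95% confidence interval -0.65 to 1.81). Without that array the difference was 0.06, and without wildtype replicate 2 it was 0.21. Adamts1 differed by 0.59 and 0.42 by its 2 probes, both with overlap. The 5 tested probes of Adamts18 did not point one way, from -0.87 to 0.16, and the 4 of Adamts10 lay between -0.15 and 0.12. Adamts20 did not pass the filter, its 2 probes being detected on 1 wildtype-labelled array each and on no null-labelled array.

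None of the 4 tested Adam proteases was called. Adam9, Adam10 and Adam17, the last 2 being the main sheddases of Notch, cytokines and growth factor ligands, gave -0.07 (95% confidence interval -0.35 to 0.21), 0.00 (-0.35 to 0.36) and 0.22 (-0.06 to 0.50) by their brightest probes. The arrays read 10.22 to 10.48 and 10.07 to 10.47 for Adam9, and 9.65 to 9.88 and 9.75 to 10.15 for Adam17. Adam12, a mesenchymal family member, read 7.07, 5.88, 7.33 and 6.93 against 7.12, 7.78, 6.89 and 7.87 (difference 0.61, 95% confidence interval -0.12 to 1.34), and the difference was 0.30 without wildtype replicate 2.

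Among the inhibitors besides Serping1, Cst3, which encodes cystatin C, the main secreted inhibitor of cysteine cathepsins, read 11.28, 11.11, 11.31 and 11.52 against 11.67, 11.88, 11.77 and 11.95. The groups did not overlap, and the difference was 0.51 (95% confidence interval 0.23 to 0.79, 1.43-fold, adjusted p = 0.0841), turning to -0.58 after scaling by the median absolute deviation (adjusted p = 0.406). Serpinf1 encodes pigment epithelium-derived factor, a secreted serpin that inhibits no protease and restrains vessel growth, and its brighter probe read 12.11, 11.61, 12.03 and 11.87 against 12.67, 12.30, 12.20 and 12.33 (difference 0.47, 95% confidence interval 0.13 to 0.81, adjusted p = 0.139). The second Serpinf1 probe, ILMN_1257789, went the other way, with 6.27, 6.40, 6.13 and 6.33 against 6.42, 5.60, 5.64 and 5.54 (difference -0.48, 95% confidence interval -0.92 to -0.05), so the gene has no single direction here.

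Timp1 was the one inhibitor gene with a lower null-labelled mean by both probes. Its brighter probe read 8.46, 8.95, 8.64 and 8.80 against 8.46, 8.23, 8.56 and 8.28, with overlap (difference -0.33, 95% confidence interval -0.64 to -0.02, adjusted p = 0.215), and the other, ILMN_2769918, gave -0.26 without overlap. Timp2, which takes part in the activation of Mmp2 by Mmp14, read 11.67 to 12.37 and 12.11 to 12.48 (difference 0.17, 95% confidence interval -0.22 to 0.56). Timp3, which binds to the matrix, gave 0.39 (95% confidence interval -0.05 to 0.82), and Reck, a membrane-anchored metalloproteinase inhibitor, 0.04 (95% confidence interval -0.32 to 0.40). The inhibitor median of 0.39 over 7 genes was -0.70 after scaling by the median absolute deviation. Relative to the median of all probes it stood at 0.42 before and at -0.43 after that scaling.

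Of the serine proteases, Plat, the tissue plasminogen activator, read 10.31, 9.88, 10.06 and 10.32 against 10.54, 10.63, 10.26 and 10.68 (difference 0.38, 95% confidence interval 0.06 to 0.71, adjusted p = 0.178). Htra3, a secreted protease with a growth factor-binding region, read 7.13, 6.61, 6.84 and 7.40 against 7.53, 7.62, 7.0 and 7.96 (difference 0.53, 95% confidence interval 0.02 to 1.04, adjusted p = 0.216). Both had overlapping groups. Htra1 read 7.28, 5.56, 7.49 and 6.96 against 7.16, 6.96, 6.56 and 7.23, and its difference of 0.15 (95% confidence interval -0.68 to 0.99) turned to -0.27 without wildtype replicate 2. Plau, the urokinase gene, was detected on none of the wildtype-labelled arrays and did not pass the filter, and its receptor gene Plaur read 4.92, 5.52, 5.34 and 5.23 against 4.94, 5.03, 4.99 and 4.92 (difference -0.28, 95% confidence interval -0.59 to 0.03).

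Of the remaining genes, Mmp15, Adamts2, Adamts5, Adam19 and Serpine2 had no probe in the annotation used here, and Adamts3 and Timp4 had none with an unambiguous row, so these 7 were not analysed here. Of the 16 genes with several tested probes, 3 had probes of opposite sign (Adamts10, Adamts18 and Serpinf1), and the largest gap between probes of 1 gene was 1.03, in Adamts18.

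Wildtype replicate 2 was the lowest of the 8 arrays for 22 of the 39 genes, and null replicate 4 the highest for 16. The mean deviation of the 39 genes was 0.01, -0.44, -0.04 and -0.07 on wildtype replicates 1 to 4 and 0.18, 0.15, 0.01 and 0.19 on null replicates 1 to 4. Without wildtype replicate 2 the count with an unadjusted p under 0.05 and a higher null-labelled mean went from 18 to 13, beside 10.1% of all probes, and the median difference from 0.24 to 0.17. The same array was the lowest of the 8 for the endothelial (-1.16), meningeal (-1.23), fibroblast and perichondrial (-1.0), neuron (-1.22) and macrophage (-1.14) marker means.

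**Figure D3:**
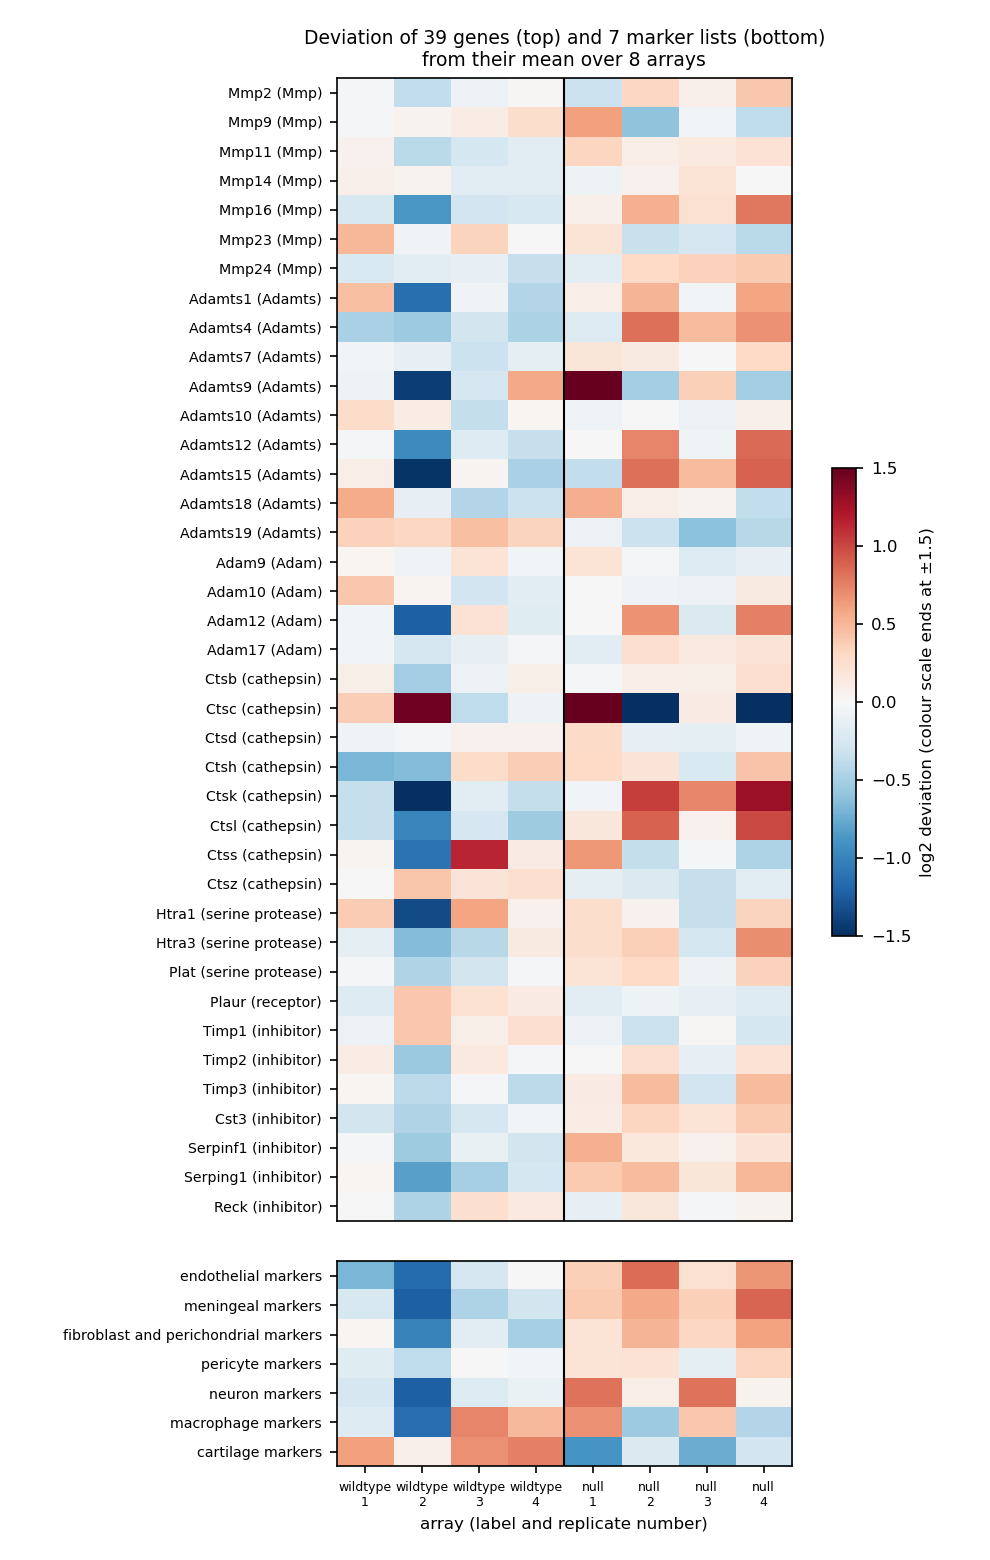
Deviation of the 39 genes (upper block, brightest tested probe) and of the means of 7 marker lists (lower block) from their own mean over the 8 arrays, in log2 units on a colour scale that ends at ±1.5. Wildtype replicate 2 is below the gene's mean for 30 of the 39 genes (mean -0.44) and for all marker lists shown but the cartilage list (0.08).

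Markers of several other cell types differed between the labels beside these genes. The fibroblast and perichondrial list had a median difference of 0.77 over 7 tested genes, all 7 positive and 1 of them called (Kera), with list means from -1.0 to 0.03 in the wildtype group and 0.21 to 0.60 in the null group. The endothelial list had a median of 0.95 (7 genes, 1 called, Tek; list means -1.16 to -0.01 and 0.23 to 0.84) and the meningeal list 1.19 (12 genes, 3 called higher; list means -1.23 to -0.24 and 0.36 to 0.87). Without wildtype replicate 2 these medians were 0.43, 0.79 and 0.81. The pericyte list (median 0.56 over 6 genes, 4 positive, 0.35 without that array), the skeletal muscle list (0.59 over 7 genes, 6 positive) and the macrophage list (0.08 over 11 genes) had none called and list means that crossed between the groups. Those of the pericyte list were -0.38 to -0.01 in the wildtype group and -0.13 to 0.32 in the null group, and those of the muscle list -0.63 to -0.01 and -0.25 to 1.02. In sorted bulk cells a larger share of a cell type and more RNA per cell cannot be told apart, and the part of these cell types in the protease and inhibitor values was not tested.

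Leaving out null replicate 1 raised the number of calls. Without it 11 of the 61 probes, of 10 genes, were called (18%), but so were 16% of all probes. The 10 genes were Serping1, Adamts4, Cst3, Ctsk, Ctsl, Mmp16 and Mmp24, which were higher, and Adamts19, Ctsz and, by its dimmer probe, Serpinf1, which were lower. Without any other single array 0 or 1 probe was called.

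**Figure D4:**
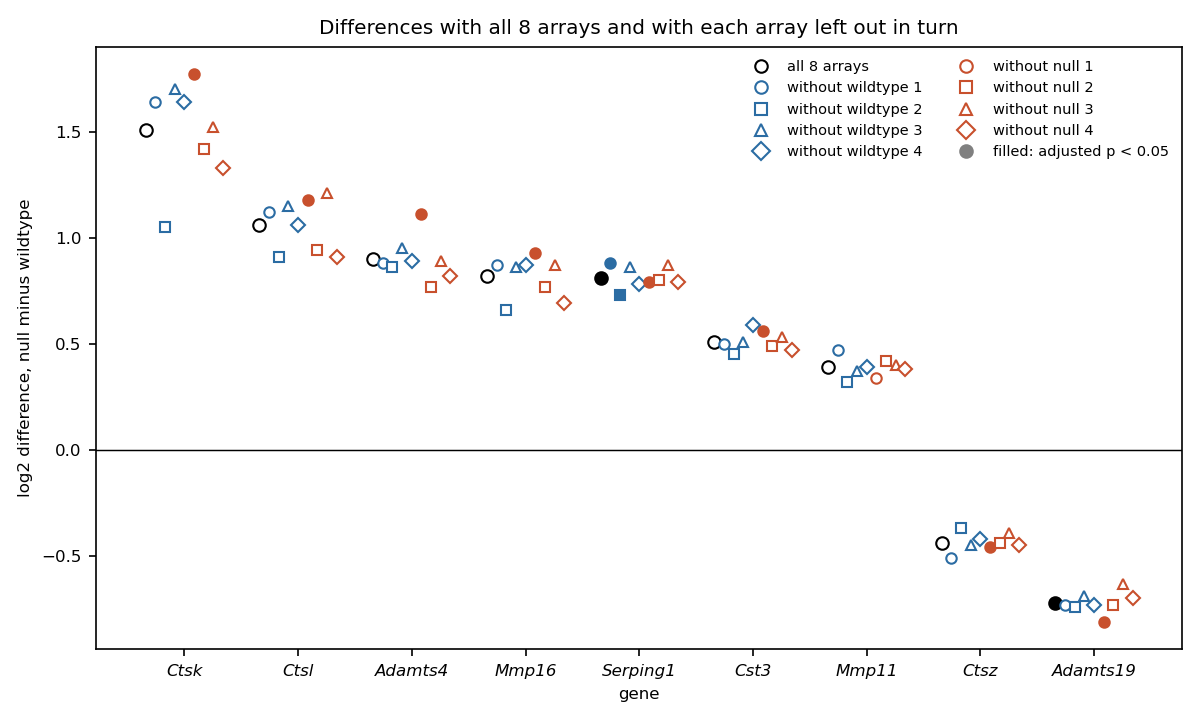
Log2 difference of 9 genes with all 8 arrays (black) and with each array left out in turn (blue for wildtype-labelled, red for null-labelled arrays); filled symbols have an adjusted p under 0.05. No symbol crosses 0, all genes but Mmp11 are called without null replicate 1, and Ctsk spans 1.05 to 1.77.

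A further 104 genes of related function served as surroundings, of which 61 were tested. Their median difference was 0.06, with 12 higher and 7 lower at an unadjusted p under 0.05 (19.7% and 11.5%, against 12% and 11% of the 10951 genes) and 1 called by its brightest probe. This was Spock1, a secreted proteoglycan named testican 1, which read 5.09, 4.51, 5.12 and 4.81 against 5.75, 6.36, 5.96 and 6.21 (difference 1.19, 95% confidence interval 0.79 to 1.59, adjusted p = 0.0229). It was detected on 2 wildtype-labelled and 4 null-labelled arrays. Sort1, which encodes the sorting receptor sortilin, was called by 1 probe (difference 0.63, adjusted p = 0.0496), and Serpini1, the neuronal serpin neuroserpin, had 1.24 (adjusted p = 0.0545). The matrix metalloproteinases and Adam genes outside the main set gave medians of 0.01 and -0.14 over 3 and 5 tested genes. All 7 of 7 genes of protease clearance and activation had positive differences, between 0.06 and 0.53. These were all negative after scaling by the median absolute deviation, where their median stood at -0.51 relative to that of all probes.

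**Figure D5:**
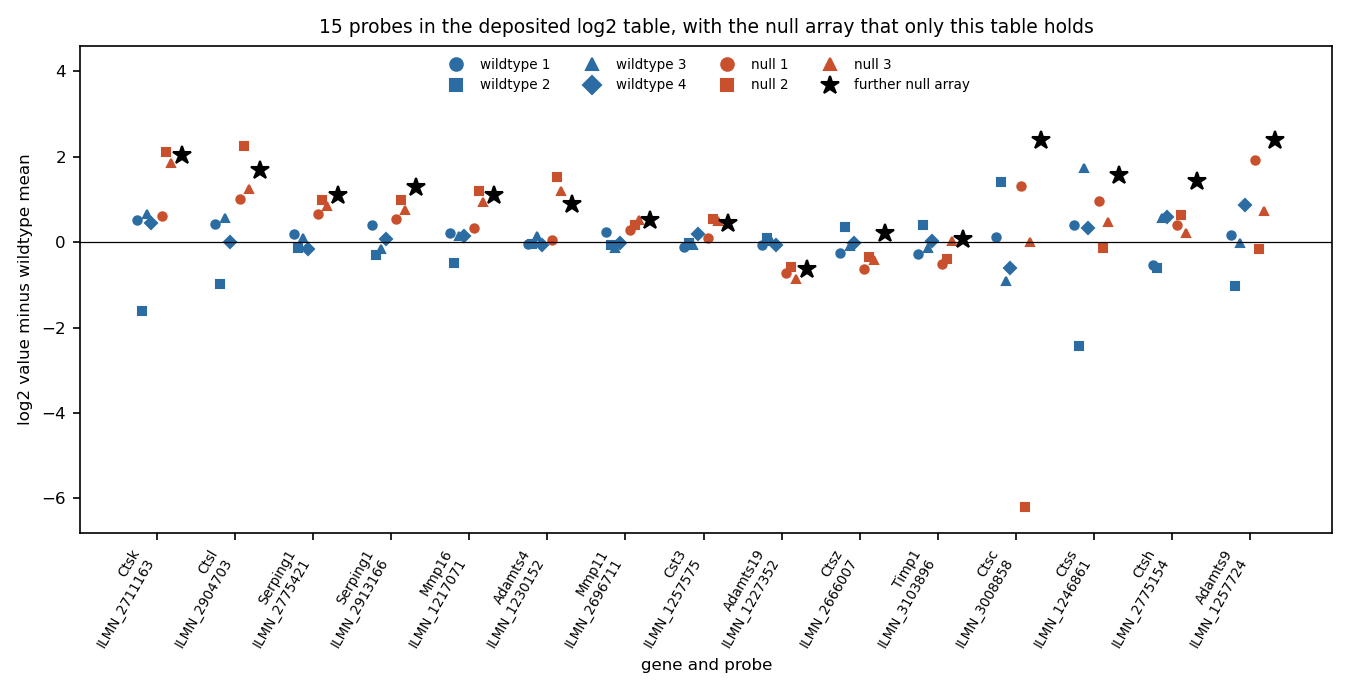
Values of 15 probes in the deposited log2 table, minus the mean of the 4 wildtype-labelled arrays there; blue marks are wildtype-labelled arrays, red marks 3 null-labelled arrays and the star a null-labelled array that only this table holds. The star lies above all 4 wildtype arrays for Ctsk (2.04), Ctsl (1.69) and both Serping1 probes (1.10 and 1.29), and below them for Adamts19 (-0.63).

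The deposited log2 table holds 1 null-labelled array that the intensities lack, and it took no part in the values above. On that array Ctsk lay 2.04 above the mean of the 4 wildtype-labelled arrays, Ctsl 1.69, Mmp16 1.11 and Adamts4 0.91, while Serping1 lay 1.10 and 1.29 above it by its 2 probes and Adamts19 0.63 below. The differences of the other null-labelled arrays in the same table, against the same wildtype arrays, were 1.52, 1.5, 0.82 and 0.92 for the first 4 genes, 0.83 and 0.76 for Serping1 and -0.73 for Adamts19. By their brighter probes Ctsz and Timp1 had 0.22 and 0.07 on this array, inside the wildtype range, against -0.47 and -0.29, while their other probes had -0.19 and -0.18, below all 4 wildtype arrays, against -0.10 and -0.22. Over the 39 genes 23 lay above all 4 wildtype-labelled arrays on it and 2 below (59.0% and 5.13%), against 21.0% and 23.1% of the 10951 genes. With 1 array there is no test, and the wildtype arrays are shared by both comparisons.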

How the data were processed

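Cells of E12.5 vertebral columns were dissociated with collagenase and trypsin, sorted for EGFP and profiled on Illumina mouse BeadChips. The deposited intensity values were background-subtracted by the authors in GenomeStudio and not normalized, and 29.4% of them are below 0; the deposited detection p-values, which the authors made in the same program, are near 1 for bright probes, so that the p used here is 1 minus the deposited value. The deposited log2 values of the second table were normalized and centred per probe by the authors, and served as an alternative and for 1 further null array; how they were centred is not stated in the sources used. Both tables share 7 arrays, and 35665 of 45281 intensity rows (78.76%) were matched to a probe through the differences between arrays, within 0.001 log2 units. Replicate numbers are those of the intensity table.

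Intensities were corrected with normexp, whose background was inferred from the detection p, with an offset of 16, quantile normalized and logged (limma 3.58.1, R 4.3.3). Probes with detection p under 0.05 on at least 4 arrays were tested with lmFit and eBayes, with Benjamini-Hochberg adjustment over all 19965. Intervals are 95% limma intervals. An "at least" fold compares the brighter group's mean with the dim group's, in which each array counts at its own signal or at the faintest detected signal of that array, whichever is greater. The number of arrays limits the precision. The fit was run on simulated data, where it had to call large planted changes with few false calls. How often it would call changes of the sizes seen here is not reported. The families and lists were chosen with earlier results of these data known. Values on every array were planned for genes with a called probe, for the 4 smallest p-values and 2 brightest genes of each family, and for Ctsk, Adamts2, Adamts4 and Mmp11. Same-numbered arrays of the groups were treated as unpaired, so a block was fitted only as an alternative. The labels give no more than replicate numbers, and the correlations of their deviations ran from -0.195 to 0.0356. The deposited tables also number the shared null arrays differently. For example, null replicate 1 here is null replicate 2 in the log2 table. Alternatives covered background, offset, scaling, filters, array weights, an ordinary ANOVA of the same normalized values, a replicate block, the log2 table and each array left out.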

Additional observations from a re-analysis of the deposited data

Results flagged for a closer look

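Among 58 groups of 4 arrays, 2 for each of the probes named by the rule, 4 held an array whose gap to the nearest other exceeded Dixon's 95% critical value as a share of the group's range, where chance flags about 1 in 20 groups. Ctsk was 6.15 on wildtype replicate 2, with the other 3 between 7.93 and 8.12. Mmp16 (ILMN_1217071) was 6.73 on the same array, with the others between 7.32 and 7.37. Mmp24 (ILMN_2486694) was 7.49 on null replicate 1, with the others between 7.96 and 8.05. Serping1 (ILMN_2775421) was 9.23 on null replicate 3, with the others between 9.45 and 9.48. Without wildtype replicate 2 the differences of Ctsk and Mmp16 were 1.05 and 0.66, against 1.51 and 0.82 with all arrays.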

How the results depend on the processing

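With all arrays and the settings reported, 156 probes were called, 2 of them among the 61 (2 genes). The corresponding counts were 99, 1 and 1 gene with intensities floored at 16 and no normexp, 75, 1 and 1 without a filter, 109, 0 and 0 with arrays centred on their median, and 1, 0 and 0 after scaling by the median absolute deviation. They were 6190 (31.0% of all probes), 24 (39.3% of the 61) and 20 genes with array weights and 16, 0 and 0 in the authors' log2 table. An ordinary ANOVA of the values normalized here gave 12, 0 and 0 (3763 and 18 probes at an unadjusted p under 0.05). It was not run on values scaled and filtered as in the study's methods. Without both wildtype replicate 2 and null replicate 1 the counts were 4048 (20.3% of all probes), 13 (21.3% of the 61) and 12. With the replicate number as a block, 20 probes were called, 0 of them among the 61 and so 0 genes (23 with an unadjusted p under 0.05). Leaving out each array in turn gave 21 to 3185 calls, 0 to 11 among the 61 and 0 to 10 genes, the highest without null replicate 1; without it 3185 of 19965 probes were called, without null replicate 4 only 21. An offset of 50, detection on all 8 arrays and a detection p under 0.01 kept the 2 calls. The cause of these changes was not tested.

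The median difference of the 39 genes (0.24) was 0.46 with median centring, -0.18 when scaled by the median absolute deviation, and 0.17 to 0.31 with 1 array left out. That scaling turned the sign of 13 named differences: Adamts12 to -0.17, Mmp14 to -1.07, Cst3 to -0.58, Adamts9 to -0.18, Adam10 to -0.25, Adam17 to -0.49, Adamts7 to -0.14, Serpinf1 to -0.70, Mmp2 to -1.04, Ctsb to -1.16, Mmp11 to -0.14, Timp2 to -1.05 and Plat to -0.40. The median of all tested probes was itself -0.26 under that scaling. Adamts12, Adamts9, Adam10, Adamts7 and Mmp11 stayed above that median, and the others fell below it. Other turns were Mmp14 to -0.04 in the log2 table, Adam9 to 0.16 with median centring, Adam10 to -0.0003 with an offset of 50, Adamts9 to -0.22 with array weights and -0.31 without both wildtype replicate 2 and null replicate 1, and Htra1 to -0.15 and -0.33 under the same settings. Leaving out 1 array moved Adamts9 between 0.06 and 0.87, Adam10 between -0.10 and 0.14 and Htra1 between -0.27 and 0.38. None of these differences was called under the settings reported. With array weights 8 of the 13 were, all as higher in the null group (Adamts12, Cst3, Adam17, Adamts7, Serpinf1, Mmp2, Mmp11 and Plat). Under that setting 31.0% of all probes were called in either direction, and 39.3% of the protease and inhibitor probes.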

Other observations

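On the null array that only the log2 table holds, several cathepsins were high, and so were markers of macrophages and of several other cell types. Ctsc lay 2.40 and Ctsh 1.43 above the wildtype mean, and both lay above all 4 wildtype arrays. Ctss, 1.56 above the mean, lay inside their range (1.69, against 1.86 on wildtype replicate 3). Ctsz, by its brighter probe, also lay inside it (0.22 above the mean), and Ctsd, at -0.43 from the mean, lay below all 4. All 11 tested macrophage markers lay above all 4 wildtype arrays, with a list mean 1.82 above the wildtype mean. The same list mean was -2.32 to 1.32 on the 4 wildtype arrays and -0.34 to 1.18 on the other 3 null arrays of that table. The 8 cathepsins as a list had a mean of 1.15 above the wildtype mean on this array, against -0.20 to 0.46 on the other 3 null arrays. The low end, on null replicate 2, is pulled down by Ctsc, which was -6.32 there in that table, at an intensity of only 0.7. Fibroblast and perichondrial markers were also highest there (1.6, against 0.55 to 1.16), and 11 of 13 tested cartilage genes lay below all 4 wildtype arrays. The list means of endothelial (1.66, against 1.28 to 2.16), skeletal muscle (1.44, against 0.15 to 1.5) and meningeal markers (1.33, against 0.92 to 1.4) were high there too. That of erythroid markers was -0.96. Adamts9 lay 2.38 above the wildtype mean on it, and in the intensity table null replicate 1 stood apart for the same gene at 12.53.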
